A study of Mus musculus with 19 samples.

Results

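The genes described here steer T cells into, through and out of lymph nodes. They are the chemokine receptor CCR7, the sphingosine 1-phosphate receptors S1PR1 and S1PR4, the oxysterol receptor GPR183, the chemokine receptor CXCR4 and the transcription factors KLF2 and KLF3. They were taken by symbol from a table of RNA-seq counts, in which 7 of 7 were found among 24982 rows, and 7 of 7 were among the 11464 genes with enough counts to be tested.

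The counts came from regulatory T cells (Tregs), the CD4+ T cells that carry the transcription factor FOXP3 and restrain immune responses. All mice were Foxp3DTR animals, in which the Foxp3 locus drives a diphtheria toxin receptor fused to GFP, so that GFP+ cells could be sorted as Tregs from the axillary, brachial and inguinal lymph nodes. CD4+ GFP+ cells were sorted into CD44high and CD44low subsets, where CD44 is a surface protein that T cells keep high after activation, and RNA was purified from 50000 cells in each sample. There were 4 CD44high samples from uninjured (sham) mice, 4 CD44high samples from injured mice, 5 CD44low samples from uninjured mice and 6 CD44low samples from injured mice, the injury being a full-thickness skin burn made 7 days earlier. The labels do not say whether a sample was 1 mouse or a pool, so the p-values measure the spread between these samples, which may be partly technical. The ages of the mice of each sample are not in the labels.

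Lymphocytes follow CCR7 to its ligands CCL19 and CCL21, which the stroma and high endothelial venules of the node present, and so enter the node and settle in its T cell zone. They leave by sensing sphingosine 1-phosphate (S1P), which is plentiful in blood and lymph and scarce inside the node, through S1PR1. The surface protein CD69, which rises on activation, binds S1PR1 and pulls it into the cell. KLF2 is a factor of quiescent T cells that switches on S1PR1, and KLF3 is a related factor that mostly represses. GPR183, also called EBI2, follows oxysterols to the outer edges of the T cell zone and B cell follicles, and CXCR4 follows CXCL12.

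Library totals lay between 5582234 and 9433610 counts. The sort marker CD44 was 2.16 ± 0.12 (log2 fold change ± SE) higher in CD44high than in CD44low samples of uninjured mice (adjusted p = 6.19e-13) and 1.89 ± 0.11 higher in injured mice (adjusted p = 3.43e-12). FOXP3 was found in every group, at group means of 70.7 to 115 CPM, which is counts per 1000000 counts of the library. IL2RA, which encodes CD25, was also found in every group, at 403.5 to 834 CPM, and was lower in CD44high Tregs by -0.62 ± 0.14 in uninjured (adjusted p = 0.00123) and -0.82 ± 0.14 in injured mice (adjusted p = 6.16e-05). It was the only lower one of 7 Treg markers tested. At an adjusted p under 0.05, 3 of the 7 were higher in CD44high Tregs of uninjured and 4 in injured mice. Of all genes, 24.7% were higher and 21.3% lower in uninjured mice, and 20.1% and 17.2% in injured mice. Among injured CD44low samples, those called 1_2, 4_2 and 5_2 have a further number whose meaning is not given. These 3 samples with a second number did not overlap the other 3 in S1PR1, S1PR4, KLF2 or GPR183. The share of all genes that did not overlap between these sets was not counted. Results of the 7 genes that rest on injured CD44low samples are also given with and without these 3 samples, where the call or direction depends on it.

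The promoters of KLF2, KLF3 and GPR183 are shown first. KLF2 and KLF3 were both lower in CD44high Tregs, as were CCR7 and S1PR1. KLF3 and GPR183 both rose in CD44high Tregs after injury. The windows run from 250 bases before to 50 bases after the start of the gene. They come from RefSeq on the mouse build GRCm38.p6, which held 5 of the 7 genes and no window for CCR7 or S1PR1. KLF2 lies at chr8:72318812-72319111 on the plus strand, KLF3 at chr5:64803271-64803570 on the plus strand, and GPR183 at chr14:121965144-121965443 on the minus strand. Capitals mark every match, on either strand, to CACCC, the core of the motif that Krüppel-like factors bind, or to GGGCGG, the GC box of SP factors. GTAAACA, a motif of FOXO factors, was searched as well.
KLF2: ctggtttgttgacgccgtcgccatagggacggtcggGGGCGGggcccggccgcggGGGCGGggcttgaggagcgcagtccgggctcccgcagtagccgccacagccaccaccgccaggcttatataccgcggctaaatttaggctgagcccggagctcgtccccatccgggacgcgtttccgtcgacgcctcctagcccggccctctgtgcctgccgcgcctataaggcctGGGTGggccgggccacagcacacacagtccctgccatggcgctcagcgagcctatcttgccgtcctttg
KLF3: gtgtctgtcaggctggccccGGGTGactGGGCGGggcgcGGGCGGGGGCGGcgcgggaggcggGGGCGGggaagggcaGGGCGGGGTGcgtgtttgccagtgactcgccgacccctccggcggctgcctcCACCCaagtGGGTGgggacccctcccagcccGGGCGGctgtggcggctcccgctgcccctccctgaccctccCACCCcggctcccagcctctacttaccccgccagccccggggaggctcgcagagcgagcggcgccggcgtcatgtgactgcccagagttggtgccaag
GPR183: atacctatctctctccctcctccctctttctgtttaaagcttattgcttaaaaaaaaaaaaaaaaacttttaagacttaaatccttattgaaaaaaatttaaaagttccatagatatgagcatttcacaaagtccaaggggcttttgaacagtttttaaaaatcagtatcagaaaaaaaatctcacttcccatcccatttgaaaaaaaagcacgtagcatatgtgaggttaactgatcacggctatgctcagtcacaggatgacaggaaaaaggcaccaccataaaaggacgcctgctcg

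The KLF3 window held 5 matches to CACCC and 6 to GGGCGG, with 1 base shared between matches to the 2 motifs, and 76.7% of its bases were G or C. The KLF2 window held 1 match to CACCC and 2 to GGGCGG, at 69.3% G or C. The GPR183 window held no match to any of the 3 motifs and was 35.3% G or C, against a median of 52.7% over the 32851 windows of the table. CACCC was held by 57.5% of those windows, GGGCGG by 35.7% and GTAAACA by 3.65%. Of the other members, the S1PR4 window held 1 match to CACCC, and the CXCR4 window held 1 match to CACCC and 3 to GGGCGG. None of the 5 member windows held GTAAACA. These matches are letters in a window and were not tested for binding.

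Levels of different genes were set side by side as CPM per kb of the longest transcript. In CD44low Tregs of uninjured mice, KLF2 (498 ± 24.3 CPM per kb, SD, n = 5) and CCR7 (488 ± 44.6) stood highest and overlapped, at ranks 70 and 73 of 11350 genes with a length. S1PR1 followed at 349 ± 20.9 (rank 124). KLF3 at 41.0 ± 1.49 and GPR183 at 36.5 ± 3.52 came next, then S1PR4 at 27.3 ± 2.09, and CXCR4 was lowest at 12.1 ± 3.58 (rank 5131). The place of KLF3 turned with the length used: per kb of the union of all exons it stood at 19, below GPR183 at 34.4 and S1PR4 at 27.3.

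The order was different in CD44high Tregs of injured mice. KLF2 led at 198 ± 15.4 CPM per kb (SD, n = 4), and S1PR1 at 169 ± 18.5 and CCR7 at 163 ± 7.91 did not differ beyond their spread. GPR183 stood at 132 ± 29.6 and rank 525, against 36.8 ± 9.45 and rank 2273 in CD44high Tregs of uninjured mice. KLF3 at 28.6 ± 3.27 stood above S1PR4 at 22.5 ± 3.17, with libraries at 26.5 to 33.5 and 18.6 to 26.1 that did not overlap. Per kb of the union of exons KLF3 stood at 13.3, below S1PR4. CXCR4 was again lowest at 9.90 ± 2.5.

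**Figure D1:**
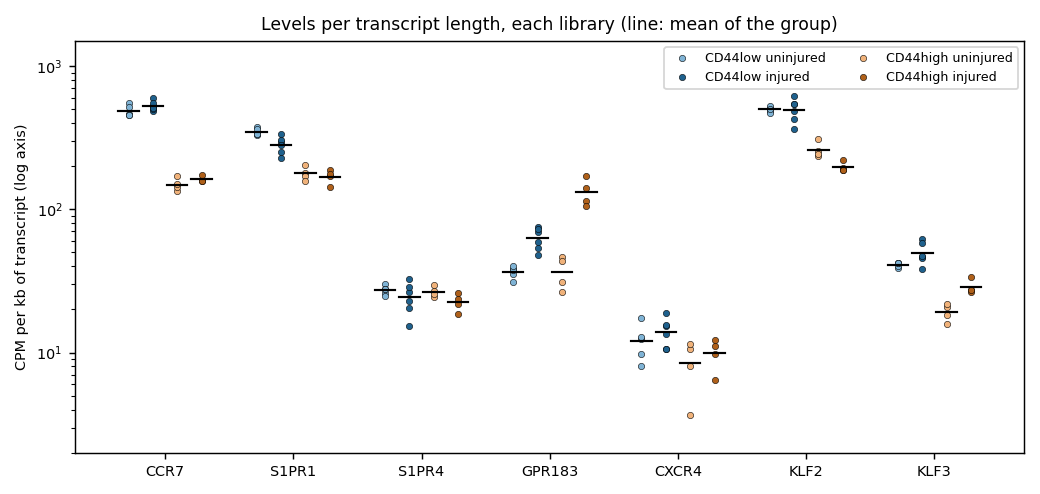
CPM per kb of the longest transcript (log axis) of each gene, with 1 point per library and a line at the mean of each of the 4 groups. CCR7, S1PR1 and KLF2 lie above 100 in every group, GPR183 does so in the injured CD44high group alone among its groups, and CXCR4 lies lowest.

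CD44high and CD44low Tregs were compared first, to ask how the subsets differed in genes for node entry and exit. In uninjured mice CCR7, S1PR1, KLF2 and KLF3 were lower in CD44high Tregs, and S1PR4, GPR183 and CXCR4 did not pass the test. Of the 7 genes, 4 were lower and 0 were higher, where 21.3% of all genes tested were lower and 24.7% were higher at an adjusted p under 0.05 (edgeR's quasi-likelihood test, Benjamini-Hochberg adjustment over 11464 genes). The same 4 genes did not overlap between the subsets in any library, as was true of 40.7% of all genes. In injured mice these 4 were lower again and GPR183 was higher, where 17.2% of all genes were lower, 20.1% were higher and 24.8% did not overlap. The median log2 fold change of the 7 genes was -0.94 in uninjured and -0.74 in injured mice, beside 0.0091 and -0.00049 over all genes tested. A lower level in a bulk sample can come from fewer cells that express the gene or from less RNA per cell, and these cannot be told apart.

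CCR7, the receptor for entry into the T cell zone, had the largest difference between the subsets among the 7 genes. It measured 1096, 916, 894, 901 and 1015 CPM in the 5 CD44low samples of uninjured mice and 264, 336, 282 and 295 CPM in the 4 CD44high samples. In injured mice it ran from 964 to 1174 CPM (median 1021) in the 6 CD44low samples and measured 319, 346, 313 and 314 CPM in the 4 CD44high samples. Every CD44high library lay below every CD44low library. The log2 fold change was -1.71 ± 0.095 (SE) in uninjured mice (adjusted p = 6.19e-13), a 3.28-fold lower level and rank 10 by p among genes that were lower. In injured mice it was -1.69 ± 0.092 (adjusted p = 9.14e-13), 3.23-fold lower, at rank 5.

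S1PR1, the receptor for exit, was also lower in CD44high Tregs. In uninjured mice it measured 1152, 1002, 1028, 1024 and 1106 CPM in CD44low and 550, 616, 523 and 481 CPM in CD44high samples. It ran in injured mice from 693 to 1017 CPM (median 878) in CD44low and measured 517, 436, 569 and 535 CPM in CD44high samples. The subsets did not overlap in either state. The difference was -0.97 ± 0.11 in uninjured mice (adjusted p = 1.24e-07) and -0.74 ± 0.11 in injured mice (adjusted p = 5.29e-06). The injured value was -0.89 without the 3 CD44low samples with a second number and -0.60 with those 3 alone, and it passed the test both ways.

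KLF2, which drives S1PR1, followed the same direction. It measured 890, 863, 941, 979 and 928 CPM in CD44low and 469, 570, 437 and 450 CPM in CD44high samples of uninjured mice. After injury it ran from 675 to 1132 CPM (median 947) in CD44low and measured 361, 347, 408 and 349 CPM in CD44high samples. Its CD44high libraries were below all CD44low libraries, by -0.94 ± 0.12 on the log2 scale in uninjured mice (adjusted p = 1.03e-06) and by -1.32 ± 0.12 in injured mice (adjusted p = 4.92e-09).

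KLF3 was the lowest in CPM of the 4 genes. It measured 202, 219, 210, 219 and 220 CPM in CD44low and 96.1, 109, 113 and 82.4 CPM in CD44high samples of uninjured mice. With injury it ran from 200.3 to 324 CPM (median 244) in CD44low and measured 175, 142, 138 and 142 CPM in CD44high samples. The subsets did not overlap, with a difference of -1.09 ± 0.13 in uninjured (adjusted p = 2.2e-07) and -0.80 ± 0.12 in injured mice (adjusted p = 1.47e-05). On GENCODE vM21 the KLF3 locus overlaps 2 other annotated genes and shares 404 exon bases with them, so a few of its reads may belong to those.

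S1PR4, another S1P receptor of lymphocytes, did not pass the test between the subsets. Its group means were 65.1 ± 4.99 (SD, n = 5) and 58.2 ± 14.8 (n = 6) CPM in CD44low Tregs of uninjured and injured mice, and 63.6 ± 5.59 and 53.8 ± 7.56 (n = 4 each) in CD44high Tregs. The 4 ranges overlapped. The 95% interval of the log2 difference between subsets was -0.37 to 0.30 in uninjured and -0.43 to 0.21 in injured mice. In the latter the value was 0.21 (adjusted p = 0.291) without the samples with a second number and -0.40 with those alone (adjusted p = 0.0251). The ratio of S1PR4 to S1PR1 counts within a library was 0.0533 to 0.0648 in CD44low and 0.112 to 0.126 in CD44high samples of uninjured mice. In injured mice the ratio was 0.0405 to 0.113 in CD44low and 0.0858 to 0.13 in CD44high samples, which overlapped.

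CXCR4 was measured from few counts, 37 to 222 per library. Its means were 21.9 ± 6.45 and 25.3 ± 5.84 CPM in CD44low Tregs of uninjured and injured mice and 15.3 ± 6.32 and 17.9 ± 4.51 CPM in CD44high Tregs, with overlapping ranges. The log2 difference between subsets was -0.51 ± 0.27 in uninjured (adjusted p = 0.13, 95% interval -1.08 to 0.052) and -0.50 ± 0.26 in injured mice (adjusted p = 0.135, interval -1.03 to 0.037). A change of up to 2-fold downward lies within these intervals.

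**Figure D2:**
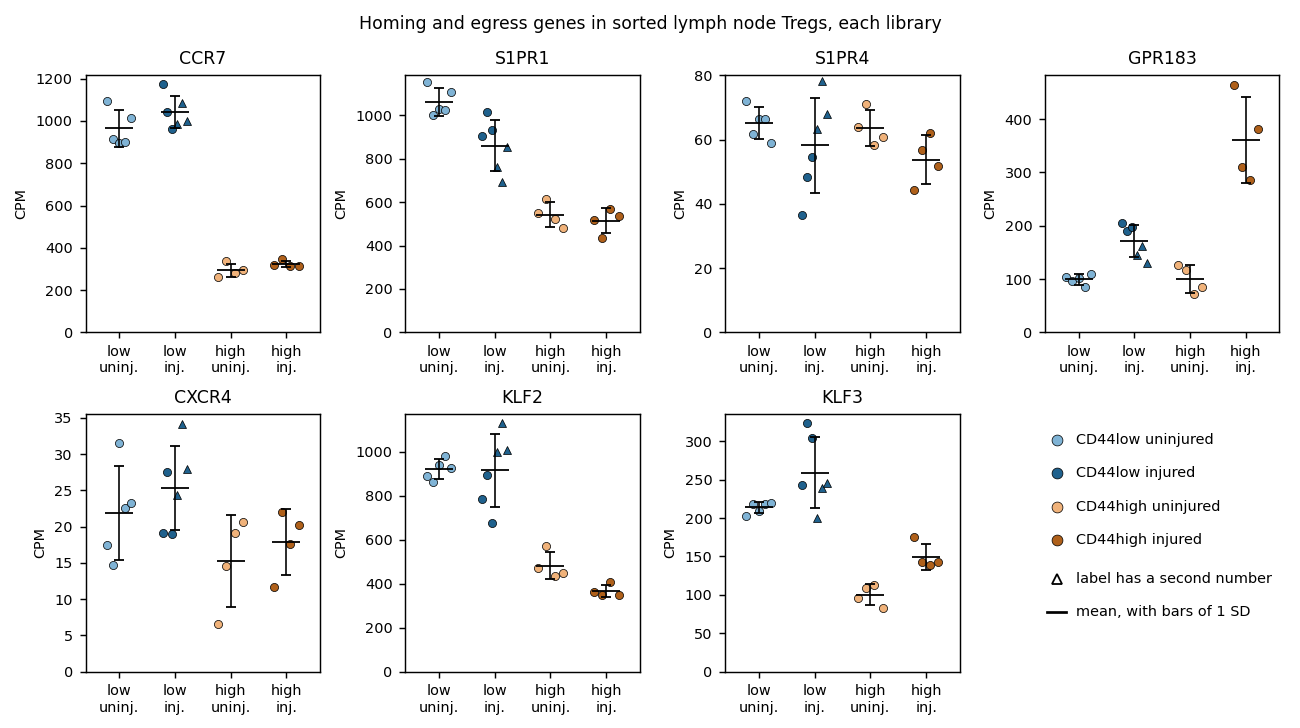
CPM of each gene in each library, in panels that start at 0, with the mean and 1 SD of each of the 4 groups and triangles for the 3 injured CD44low libraries with a second number. CCR7, S1PR1, KLF2 and KLF3 are lower in all CD44high than in all CD44low libraries of the same injury state, and GPR183 runs from 285 to 464 CPM in injured CD44high libraries.

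GPR183, the oxysterol receptor, did not pass the test between the subsets of uninjured mice and was higher in CD44high Tregs of injured mice. In uninjured mice it measured 104, 96.6, 103, 84.4 and 110 CPM in CD44low and 126, 118, 72.1 and 85.2 CPM in CD44high samples, which overlapped. The log2 difference was 0.011 ± 0.17, with a 95% interval of -0.34 to 0.36 (adjusted p = 0.963). In injured mice it measured 464, 309.5, 285 and 382 CPM in CD44high samples and 130 to 205 CPM (median 176) in CD44low samples. All 4 CD44high libraries were above all 6 CD44low libraries, by 1.07 ± 0.16 (adjusted p = 7.41e-06), a 2.10-fold higher level.

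Injured and uninjured mice were then compared within each subset, to ask which of these genes responded to the burn after 7 days. In CD44high Tregs GPR183 and KLF3 were higher after injury and 0 members passed as lower, where 1.06% of all genes were higher and 1.33% were lower. GPR183, KLF3 and KLF2 did not overlap between injured and uninjured CD44high libraries, as was true of 13.3% of all genes. In CD44low Tregs 1 of the 7 genes, GPR183, was higher and 0 were lower, where 4.24% of all genes were higher, 3.36% were lower and 4.68% did not overlap. The median log2 change of the 7 genes was 0.13 in CD44high and 0.11 in CD44low Tregs, beside -0.021 and 0.0077 over all genes.

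GPR183 rose by 1.85 ± 0.18 on the log2 scale in CD44high Tregs (adjusted p = 1.44e-06), from a mean of 100.2 ± 25.7 to 360.2 ± 80.7 CPM (SD, n = 4 each). This 3.6-fold rise had the third smallest p among all genes tested (rank 3), and the lowest injured library at 285 CPM lay above the highest uninjured library at 126 CPM. In CD44low Tregs it rose by 0.79 ± 0.15 (adjusted p = 0.00355), from 99.4 ± 9.59 (n = 5) to 172 ± 30.3 CPM (n = 6), a 1.73-fold rise in which all 6 injured libraries exceeded all 5 uninjured ones. The 3 injured CD44low samples without a second number stood at 189 to 205 CPM and those with one at 130 to 162 CPM. Without the latter the rise was 0.99 (adjusted p = 0.000473), and with those alone it was 0.58 (adjusted p = 0.0589) and no longer passed the test.

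The rise of GPR183 was larger in CD44high than in CD44low Tregs. The difference between the 2 effects was 1.06 ± 0.23 on the log2 scale (95% interval 0.58 to 1.53, adjusted p = 0.0267), where 0.192% of all genes had a larger and 0.454% a smaller effect in CD44high Tregs at an adjusted p under 0.05. It was 1 of 7 members to pass, and the same test says that the gap between the subsets was wider in injured mice. Leaving out CD44high uninjured library 4 or 5, CD44high injured library 2 or 5, or CD44low uninjured library 1, 3 or 5 put the adjusted p between 0.05005 and 0.0815, with differences of 0.90 to 1.04. The difference was 0.86 without the injured CD44low samples with a second number (adjusted p = 0.043) and 1.28 with those alone (adjusted p = 0.00779).

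KLF3 rose by 0.58 ± 0.13 in CD44high Tregs (adjusted p = 0.0178), from 100.2 ± 13.9 to 149 ± 17.1 CPM, with injured libraries at 138 to 175 CPM above uninjured ones at 82.4 to 113 CPM. The call was lost without CD44high uninjured library 2 (adjusted p = 0.0547) or 5 (0.075) or injured library 2 (0.0724), while the change stayed between 0.50 and 0.64 whichever library was left out. In CD44low Tregs the change was 0.28 ± 0.11 (adjusted p = 0.118), from 214 ± 7.75 to 259 ± 45.9 CPM. It was 0.44 there (adjusted p = 0.0118) without the samples with a second number and 0.12 (adjusted p = 0.59) with those alone.

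KLF2 did not follow KLF3. Its log2 difference after injury was -0.39 ± 0.13 in CD44high Tregs (unadjusted p = 0.0045, adjusted p = 0.106, edgeR), from 481 ± 60.3 to 366 ± 28.4 CPM, with no overlap between 347 to 408 CPM after injury and 437 to 570 CPM without. The lower level passed with only the groups compared (adjusted p = 0.0469), without the injured CD44low samples with a second number (0.0205), with those alone (0.0284) and with 1 summed with 1_2 and 5 with 5_2 (0.0293). These were 4 of 29 alternatives. The other 25 did not pass, at adjusted p up to 0.355. In CD44low Tregs it was -0.0069 ± 0.11 (adjusted p = 0.977), with means of 920 ± 44.9 and 916 ± 166 CPM. There the samples without a second number had 675 to 893 CPM and those with one had 999.8 to 1132 CPM, on either side of most uninjured libraries. The change in CD44low Tregs was -0.23 (adjusted p = 0.125) without the samples with a second number and 0.21 (adjusted p = 0.208) with those alone. The ratio of KLF3 to KLF2 counts within a library was 0.183 to 0.259 in CD44high Tregs of uninjured mice and 0.339 to 0.485 after injury, which did not overlap. In CD44low Tregs it was 0.223 to 0.254 and 0.2 to 0.451, which did.

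CCR7 differed little between injured and uninjured mice in either subset, by 0.13 ± 0.096 in CD44high (adjusted p = 0.561, 95% interval -0.065 to 0.33) and 0.11 ± 0.082 in CD44low Tregs (adjusted p = 0.401, interval -0.057 to 0.28). A change of CCR7 beyond 1.3-fold lies outside both intervals. S1PR1 differed by -0.076 ± 0.11 in CD44high Tregs (adjusted p = 0.812) and by -0.31 ± 0.096 in CD44low Tregs (adjusted p = 0.0525), from 1062 ± 63.6 to 859.5 ± 118 CPM with overlapping ranges. The latter passed with DESeq2 (adjusted p = 0.0378), with library totals alone (0.0486), and without CD44high injured library 3 (0.0466) or CD44low injured library 2 (0.0498). It was -0.44 with only the second-numbered samples (adjusted p = 0.0229) and -0.16 without them (adjusted p = 0.261).

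S1PR4 and CXCR4 did not pass the test after injury in either subset. S1PR4 differed by -0.24 ± 0.17 in CD44high (adjusted p = 0.547) and -0.16 ± 0.14 in CD44low Tregs (adjusted p = 0.496). In the latter it was -0.48 (adjusted p = 0.0229) without the samples with a second number and 0.13 (adjusted p = 0.615) with those alone. CXCR4 differed by 0.22 ± 0.29 and 0.21 ± 0.24 (adjusted p = 0.78 and 0.627), with intervals that reach from -0.37 to 0.81 in CD44high Tregs.

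**Figure D3:**
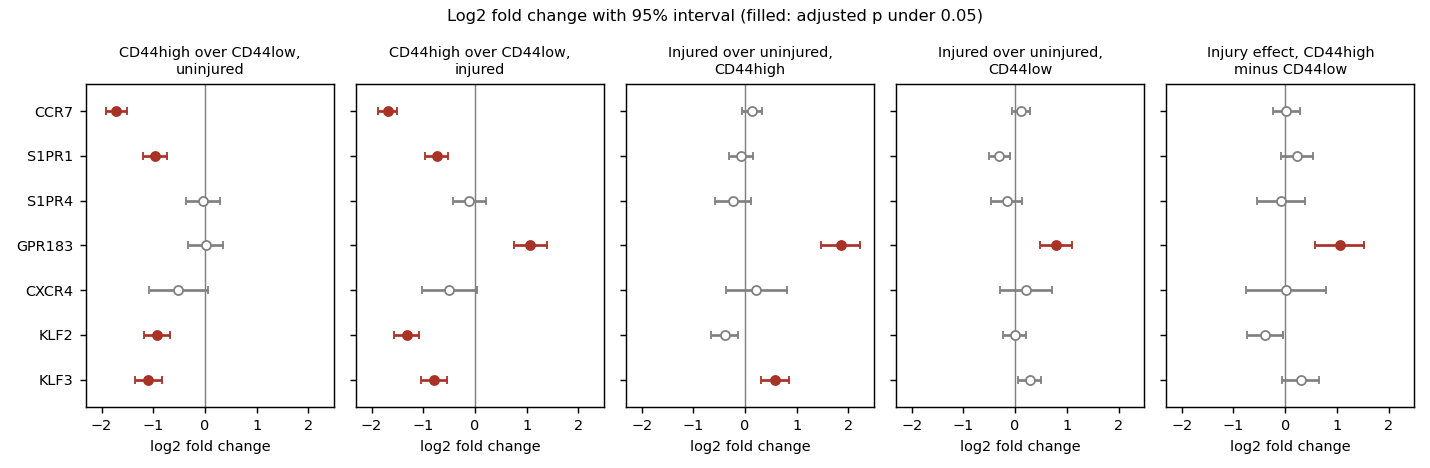
Log2 fold change of each gene in the 5 comparisons with its 95% interval from edgeR, filled red where the adjusted p is under 0.05. CCR7, S1PR1, KLF2 and KLF3 lie left of 0 in both comparisons of the subsets, and GPR183 lies right of 0 in both comparisons of injury and in their difference.

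GPR183 rose while CCR7 and S1PR1 did not pass the test in CD44high Tregs, and the balance of counts within a library moved. The ratio of GPR183 to CCR7 counts had a median of 0.105 in CD44low Tregs of uninjured mice and 0.162 in injured mice. In CD44high Tregs the median was 0.32 in uninjured and 1.07 in injured mice, where 4 libraries spanned 0.895 to 1.46. These ratios compare counts and not molecules, since the transcripts differ in length. The ratio of GPR183 to S1PR1 had medians of 0.0964 and 0.202 in CD44low and of 0.184 and 0.712 in CD44high Tregs.

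**Figure D4:**
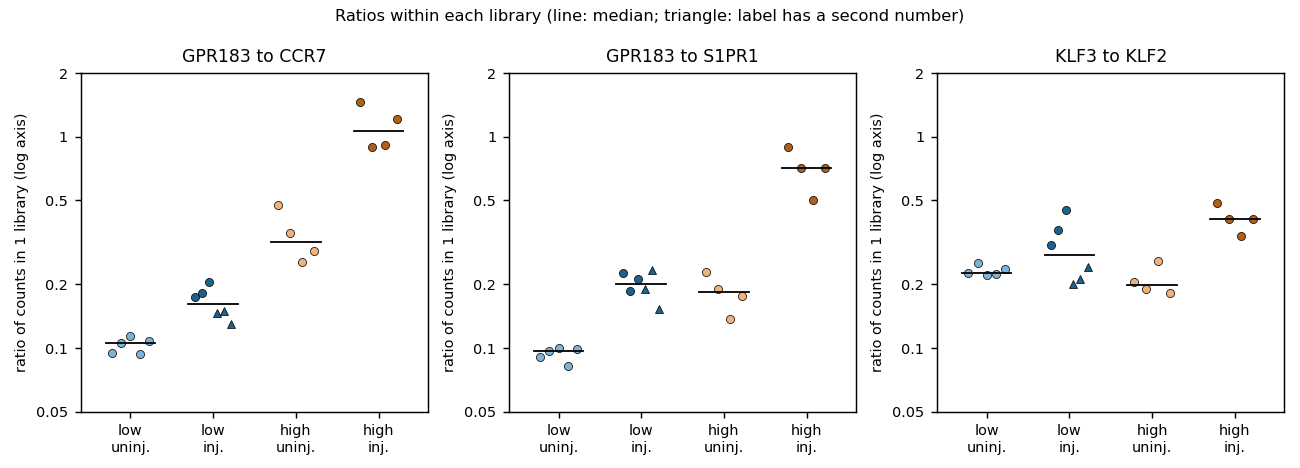
Ratio of the counts of 2 genes within each library (log axis) in the 4 groups, with a line at the median and triangles for libraries with a second number. GPR183 to CCR7 and GPR183 to S1PR1 are highest in injured CD44high libraries, at medians of 1.07 and 0.712, and KLF3 to KLF2 is higher in injured than in uninjured CD44high libraries.

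**Figure D5:**
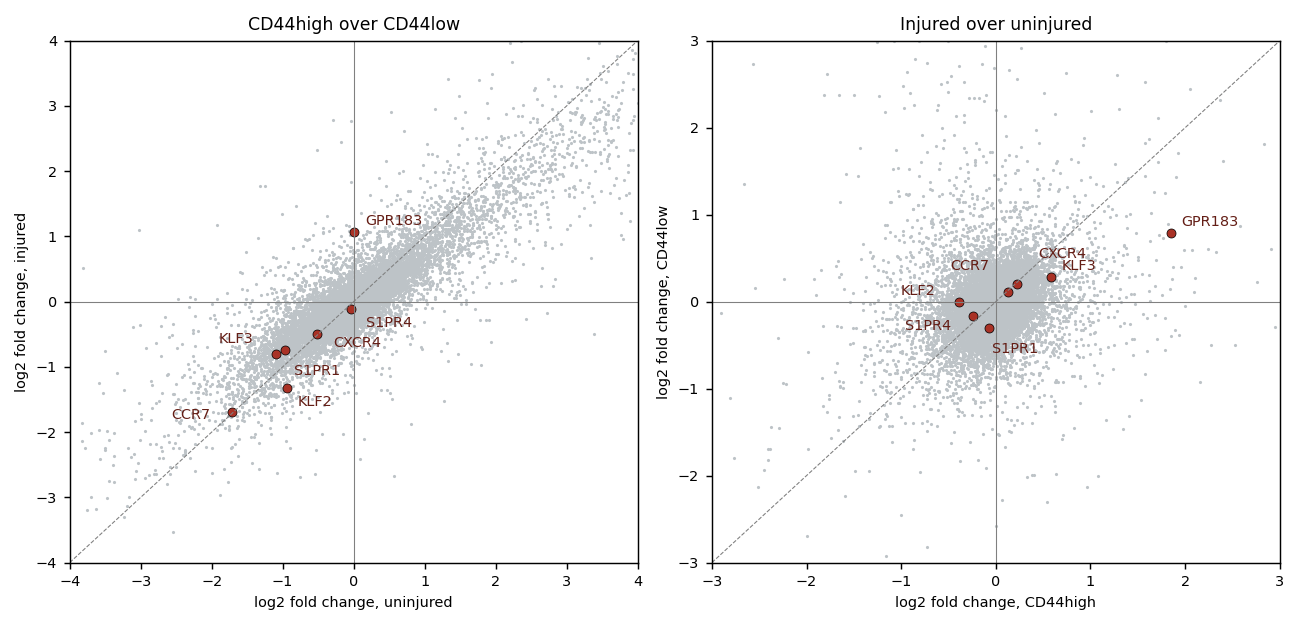
Log2 fold change of all genes tested (grey) and of the 7 genes (red), CD44high over CD44low in uninjured against injured mice (left) and injured over uninjured in CD44high against CD44low Tregs (right), with the line of equal change. Axes end at 4 and 3, which leaves 274 and 64 genes outside. CCR7 lies on the line at the left end of the 7, and GPR183 lies far above it on the left and below it on the right.

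On GENCODE vM21 the GPR183 locus lies within that of UBAC2 on the opposite strand and shares 0 exon bases with it. SMART-Seq cDNA does not mark strand, so reads of the 2 genes in a shared stretch cannot be told apart. UBAC2 itself differed after injury by -0.13 ± 0.11 in CD44high (adjusted p = 0.631) and 0.14 ± 0.094 in CD44low Tregs (adjusted p = 0.35), and was lower in CD44high than CD44low Tregs of injured mice by -0.61 ± 0.10 (adjusted p = 3.98e-05).

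B cells and dendritic cells also express GPR183, so their markers are given beside its rise. Of 10 B cell markers, 1 (CD22) was higher and 0 were lower in CD44high Tregs after injury, and 0 of 10 passed in CD44low Tregs. Of all genes, 1.06% were higher and 1.33% lower after injury in CD44high Tregs, and 4.24% and 3.36% in CD44low Tregs. The summed level of the B cell list ran from 120 to 254 CPM in uninjured and 173 to 339 CPM in injured CD44high libraries, and from 99 to 192 and 132 to 261 CPM in CD44low libraries. CD22 rose from 19.6 ± 6.81 to 64.4 ± 7.04 CPM (log2 1.72 ± 0.31, adjusted p = 0.00267). The median log2 change of the B cell list was 0.205 in CD44high and 0.178 in CD44low Tregs, beside -0.021 and 0.00767 over all genes. Of 10 markers of macrophages and dendritic cells, 0 passed after injury in CD44high Tregs and 1 (LYZ2, log2 1.27 ± 0.35, adjusted p = 0.0301) rose in CD44low Tregs. That list summed to 95.4 to 172 and 105 to 250 CPM in uninjured and injured CD44high libraries, and to 23.8 to 41.3 and 33.6 to 153 CPM in CD44low libraries. No marker of either list was at 0 in a whole group. Between the subsets, CD22 was also higher in CD44high Tregs of injured mice, by 1.56 ± 0.27 (adjusted p = 7.93e-05), where GPR183 was higher too, and CD79B was higher there in uninjured mice by 0.84 ± 0.17 (adjusted p = 0.00037). Each was 1 of 10 B cell markers to pass, where 20.1% and 24.7% of all genes were higher in injured and uninjured mice. The part of these cells in the rise of GPR183 was not tested.

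Markers of other cells also differed between the subsets beside CCR7, S1PR1, KLF2 and KLF3. Of all genes, 24.7% were higher and 21.3% lower in CD44high Tregs of uninjured mice, and 20.1% and 17.2% in injured mice. After injury 1.06% were higher in CD44high Tregs, and 4.24% were higher and 3.36% lower in CD44low Tregs. In uninjured mice 9 of the 10 macrophage and dendritic cell markers were higher in CD44high Tregs, and in injured mice 4 were, among them SIGLECH of plasmacytoid dendritic cells and XCR1 of cross-presenting dendritic cells. SIGLECH had means of 17.3 ± 2.95 and 11.4 ± 1.55 CPM in CD44high Tregs of uninjured and injured mice and under 1 CPM in both CD44low groups. Of 6 neutrophil markers, 3 were tested, of which MMP9 was higher in CD44high Tregs in both states and S100A9 rose after injury in both subsets, to 3.96 ± 4.33 and 2.99 ± 4.84 CPM. The neutrophil list summed to 50.7 to 109 and 62.9 to 87.0 CPM in CD44high and 0.852 to 8.04 and 3.78 to 37.6 CPM in CD44low libraries, and LY6G, which defines these cells, was at 0 in 3 of the 4 groups. Most of the CD44high sums was MMP9 alone, with means of 74.5 and 60.9 CPM in uninjured and injured mice. Of 6 markers of CD8 and NK cells, 2 (KLRB1C and NKG7) were higher in CD44high Tregs in both states and KLRB1C rose after injury in CD44low Tregs, within sums of 117 to 159, 119 to 132, 82.1 to 112 and 86.4 to 102 CPM in uninjured and injured CD44high and uninjured and injured CD44low libraries. Of 10 markers of lymph node stroma and endothelium 3 were tested, of which 2 were higher and 1 lower in CD44high Tregs in each injury state. COL1A1, a collagen of fibroblasts, was higher at 2.36 ± 0.74 and 1.5 ± 0.72 CPM in CD44high Tregs of uninjured and injured mice against 0.0568 ± 0.13 and 0.263 ± 0.26 CPM in CD44low Tregs (adjusted p = 6.2e-05 and 0.00534). PROX1, a factor of lymphatic endothelium, was higher at 4.44 ± 2.71 and 3.27 ± 1.23 against 0.809 ± 0.87 and 0.025 ± 0.061 CPM (adjusted p = 0.00287 and 7.29e-06), and was lower after injury in CD44low Tregs (adjusted p = 0.0156), where its counts summed to 27 and 1 over the group. PECAM1, which naive T cells also carry, was lower in CD44high Tregs by -1.73 ± 0.14 in uninjured (adjusted p = 5.2e-10) and -0.98 ± 0.13 in injured mice (adjusted p = 2.44e-06). In CD44high Tregs PECAM1 rose after injury by 0.69 ± 0.14 (adjusted p = 0.0075). The stromal list summed to 62.2 to 79.2 and 82.2 to 120 CPM in CD44high and 189 to 220 and 136 to 231 CPM in CD44low libraries, with PDPN, CCL21A and CCL19 at 0 in every group. Most of these sums was PECAM1 alone, with means of 60.8 and 97.9 CPM in CD44high and 201.6 and 192.6 CPM in CD44low Tregs. The part of these cells in the differences of the 7 genes was not tested.

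Ligands of these receptors are made by other cells of the node. CCL19, CCL21A, CCL21B and CCL21C had no count in any of the 19 libraries, which allows up to 0.318 to 0.537 CPM in a library (3 counts). Among 11 ligands and ligand enzymes 2 were tested. One was HSD3B7, an enzyme that breaks down the oxysterol ligand of GPR183, which was higher in CD44high Tregs at 7.72 ± 2.08 against 0.815 ± 0.67 CPM in uninjured mice (adjusted p = 3.27e-05) and at 5.15 ± 0.91 against 0.909 ± 0.62 CPM in injured mice (adjusted p = 0.000384). The other was MIF, a ligand of CXCR4, which did not pass, with group means of 123 to 146 CPM. CH25H, which starts the synthesis of that oxysterol, had at most 0.428 CPM in any library.

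S1P receptors and enzymes of S1P are given next. S1PR2, a receptor that holds cells back from S1P, was higher in CD44high Tregs, by 1.01 ± 0.19 in uninjured (51.5 ± 6.07 against 25.6 ± 9.53 CPM, adjusted p = 0.000174) and 0.85 ± 0.18 in injured mice (51.1 ± 3.70 against 28.3 ± 3.16 CPM, adjusted p = 0.000707). S1PR3 and S1PR5 had too few counts to be tested, with S1PR5 at no more than 0.713 CPM in any library. Of 17 genes of S1P metabolism and transport, 12 were tested. In uninjured mice 6 were higher and 4 lower in CD44high Tregs, and in injured mice 5 were higher and 3 lower, where 24.7% and 21.3% of all genes were higher and lower in uninjured and 20.1% and 17.2% in injured mice. CERS4, a ceramide synthase, was higher by 1.26 ± 0.17 and 1.11 ± 0.16, and SGPP1, a phosphatase that removes S1P, was lower by -0.61 ± 0.10 and -0.62 ± 0.10. CERS6, another ceramide synthase, was lower by -1.92 ± 0.32 in uninjured mice, and SPHK2, a kinase that makes S1P, by -0.72 ± 0.10 in injured mice. The means in CD44high against CD44low Tregs were 5.14 against 11.2 CPM for CERS6 in injured and 53.3 against 74.8 CPM for SPHK2 in uninjured mice. After injury 0 of 12 passed in either subset with edgeR. DESeq2 called 1 of them higher in CD44low Tregs, where it called 1460 of all genes in either direction against 871 with edgeR.

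Genes that control how long S1PR1 stays at the cell surface were led by CD69. It rose after injury by 0.81 ± 0.14 in CD44high Tregs (143 ± 15.8 to 250.3 ± 27 CPM, adjusted p = 0.00157) and by 1.01 ± 0.12 in CD44low Tregs (155.5 ± 28.1 to 313 ± 39.3 CPM, adjusted p = 2.69e-05). The ratio of CD69 to S1PR1 counts did not overlap between injured and uninjured libraries of either subset, at 0.232 to 0.283 and 0.419 to 0.563 in CD44high and 0.0922 to 0.171 and 0.307 to 0.418 in CD44low Tregs. CD69 itself differed in CD44high from CD44low Tregs by -0.12 ± 0.13 in uninjured (adjusted p = 0.481) and -0.32 ± 0.13 in injured mice (adjusted p = 0.0475). The latter did not pass with the second-numbered samples alone (adjusted p = 0.323). Of the 9 genes of this list tested, 5 were lower and 0 higher in CD44high Tregs in each injury state, where 21.3% of all genes were lower in uninjured and 17.2% in injured mice. ARRB1, an arrestin that takes up activated receptors, was lower by -1.16 ± 0.25 in uninjured and -1.16 ± 0.24 in injured mice, and the receptor kinase GRK6 by -0.35 ± 0.09 and -0.46 ± 0.087.

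Regulators and partners of KLF2 and KLF3 were compared in the same way. Of 25 genes tested, 14 were lower and 1 higher in uninjured mice and 10 were lower and 2 higher in injured mice, beside 21.3% and 17.2% of all genes that were lower. FOXO1, which switches on KLF2 in T cells, was lower by -0.58 ± 0.091 (604 ± 45.8 against 901 ± 57.7 CPM, adjusted p = 1.49e-05) and by -0.46 ± 0.087 (474 ± 10.5 against 652 ± 71.8 CPM, adjusted p = 0.000211). AKT1, a kinase that keeps FOXO factors out of the nucleus, was higher by 0.61 ± 0.084 in uninjured mice (adjusted p = 2.43e-06). Its means in injured mice were 296.5 CPM in CD44high and 239 CPM in CD44low Tregs. MAP3K3 of the kinase cascade that induces KLF2 was lower by -0.76 ± 0.11 in injured mice, and SMURF1, a ubiquitin ligase that degrades KLF2, by -1.29 ± 0.22. In uninjured mice the means in CD44high against CD44low Tregs were 167 against 221 CPM for MAP3K3 and 36.5 against 79.2 CPM for SMURF1. After injury 3 of 25 were lower in CD44low Tregs, where 3.36% of all genes were lower. They were FOXO1 (-0.47 ± 0.081, adjusted p = 0.00165), FOXO3 (-1.20 ± 0.35, adjusted p = 0.0375, at 1.99 to 4.56 CPM) and TSC1 (-0.77 ± 0.24, adjusted p = 0.0482). In CD44high Tregs 0 of 25 passed with edgeR, with FOXO1 at -0.35 ± 0.095 (adjusted p = 0.0506). DESeq2 called 1 of the 25 there, and 477 of all genes against 273 with edgeR.

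Other receptors that position lymphocytes differed between the subsets in both directions. Of 9 tested, 4 were higher and 4 lower in CD44high Tregs of uninjured mice, beside 24.7% and 21.3% of all genes, and 4 were higher and 2 lower in injured mice, beside 20.1% and 17.2%. LTB4R1, a receptor for leukotriene B4, stood at 63.5 ± 10.7 and 29.4 ± 2.78 CPM in CD44high and under 1 CPM in both CD44low groups. CCRL2, which binds chemerin, was higher by 2.83 ± 0.26 and 1.93 ± 0.23 in uninjured and injured mice and LPAR6, a receptor for lysophosphatidic acid, by 1.29 ± 0.16 and 1.29 ± 0.15. CXCR5, which leads cells to B cell follicles, rose after injury in CD44high Tregs by 1.5 ± 0.23 (28.0 ± 8.54 to 78.9 ± 16.9 CPM, adjusted p = 0.000402), and GPR18 rose there by 0.73 ± 0.16 (adjusted p = 0.0107). Between the subsets, CXCR5 differed in CD44high from CD44low Tregs by -0.58 ± 0.22 in uninjured (adjusted p = 0.0342) and 0.40 ± 0.20 in injured mice (adjusted p = 0.114). After injury CXCR5 was 0.52 ± 0.19 higher in CD44low Tregs without passing (adjusted p = 0.0908). The difference between the 2 injury effects was 0.98 ± 0.29 (adjusted p = 0.146). In CD44low Tregs CCRL2 rose by 0.96 ± 0.25 (adjusted p = 0.0225) and GPR174, a lysophosphatidylserine receptor, fell by 0.45 on the log2 scale (SE 0.11, adjusted p = 0.0173).

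The last list holds the machinery that turns these receptors into movement. Of 33 genes tested, 9 were higher and 13 lower in CD44high Tregs of uninjured mice and 4 were higher and 10 lower in injured mice, where 24.7% and 21.3%, and 20.1% and 17.2%, of all genes were higher and lower. PIK3CD and PIK3R5, a catalytic and a regulatory subunit of phosphoinositide kinases, were lower by -1.19 ± 0.17 and -1.16 ± 0.16 in uninjured and by -1.07 ± 0.16 and -1.24 ± 0.16 in injured mice, and CDC42, a GTPase of cell polarity, was higher by 0.83 ± 0.096 in uninjured mice. The means of CDC42 in injured mice were 1972 CPM in CD44high and 1364 CPM in CD44low Tregs. After injury 0 of 33 passed in CD44high Tregs with edgeR, where 1.06% and 1.33% of all genes were higher and lower. DESeq2 called 2 of the 33 there, and 477 of all genes against 273 with edgeR. In CD44low Tregs 2 were lower, where 3.36% of all genes were, RHOA by -0.27 ± 0.081 (adjusted p = 0.0475) and ARHGEF1, which links G proteins to RHOA, by -0.34 ± 0.097 (adjusted p = 0.0354).

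The calls after injury in CD44low Tregs were checked against the samples with a second number for 14 called genes of these lists, of which 12 passed without those samples and 6 with those alone. CD69 and FOXO1 passed both ways. CCRL2 (adjusted p = 0.0509) and GPR174 (0.0621) did not pass without them. ARHGEF1, FOXO3, KLRB1C, LYZ2, PROX1, RHOA and TSC1 did not pass with those alone, at adjusted p of 0.107 to 0.368, and S100A9 was then not tested.

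The genes whose log2 CPM ran most like each member over the 19 libraries are given as a description. The libraries share 4 groups and 2 subsets, so a gene that differs between subsets will run with others that do. Pearson's r with CCR7 was 0.986 for IGF2R, 0.984 for GPR83 and 0.983 for LY6C1. S1PR1 ran with PARN (0.948), DGKA (0.947) and TMEM64 (0.941), and KLF2 with ZNRF1 (0.969), KBTBD11 (0.951) and CHD3 (0.949). KLF3 ran with GIMAP3 (0.954) and LAD1 (0.944). GPR183, which has another pattern, ran with LAX1 (0.882), INPP5B (0.881) and GJB2 (0.857), and LAX1 stood at 101 ± 6.61 and 181 ± 15.3 CPM in CD44high Tregs of uninjured and injured mice against 90.1 ± 8.46 and 108 ± 17.3 CPM in CD44low Tregs. S1PR4 ran with ANXA11 (0.896), RARG (0.895) and ANKRD50 (0.869), and CXCR4 with PRCC (0.888), ERF (0.807) and TRIB3 (0.794).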

How the data were processed

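Bulk RNA-seq of sorted lymph node Tregs was analysed in 19 samples of 4 groups, named from the labels. The authors made libraries from SMART-Seq cDNA, used STAR within the VIPER workflow, and deposited unnormalized whole-number counts of each gene in each sample. The submitters' processing notes name STAR 2.5, bcl2fastq 2.18 and the builds mm9 and mm10 without saying which made the counts. The table was analysed with R 4.3.3 and edgeR 4.0.16: genes were filtered at a minimum count of 10, scaled by TMM factors (0.97 to 1.04) and fitted with 1 mean per group, and the quasi-likelihood test (two-sided) was adjusted over 11464 genes with calls at an adjusted p under 0.05. The prior count of log2 CPM was 2. DESeq2 1.42.0 and other settings were alternatives, and the check of list genes against samples with a second number was added after the data were seen. Reads carry no molecular identifiers here, so the limit for a count of 0 (3 counts) covers counting error only. Lengths and overlaps are from GENCODE vM21 and promoters from RefSeq. Genes were named by rule: all 7 members, from each other list the 3 called genes of smallest p in each comparison, CD69, FOXO1, S1PR2, S1PR5, CXCR5, FOXP3, IL2RA and CD44 always, and 3 genes of highest r per member. S1PR3 and CH25H, and the genes named as at 0 or as overlapping, were added after their values were seen. The members and lists were chosen with earlier results of these data known. The fits were tested on simulated data. Some genes that these rules name are not reported here.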

Additional observations from a re-analysis of the deposited data

Results flagged for a closer look

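In CD44high Tregs of injured mice, library 2 had 175 CPM of KLF3, apart from the other 3 at 138 to 142 CPM, by a gap of 0.88 of the group's range. This was 1 of 28 groups of libraries checked, where chance alone sets about 1 in 20 apart. Without that library the rise of KLF3 in CD44high Tregs was 0.50 on the log2 scale (adjusted p = 0.0724).

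The effect of injury on GPR183 differed between CD44high and CD44low Tregs by 1.06 on the log2 scale in the test of the difference itself (edgeR, adjusted p = 0.0267), with a rise in both subsets.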

How the results depend on the processing

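Of the 1029 repeats of the members' 35 log2 fold changes under other settings, 942 kept direction and side of the threshold, 12 lost and 17 gained a call and 58 changed sign, all 58 of them in differences that did not pass the test. The lower levels of CCR7, S1PR1, KLF2 and KLF3 in CD44high Tregs, and the higher GPR183 there in injured mice and after injury, kept their direction and call under every alternative run for these fold changes. DESeq2 made -0.00087 of the CXCR4 difference between injury effects and 0.0097 of the KLF2 change in CD44low Tregs. RLE factors gave -0.0031 and 0.0099 for these, upper-quartile factors 0.0071 for KLF2, and no filter on low counts 0.022. Library totals alone gave -0.035 for GPR183 between the subsets in uninjured mice. With a 2-fold minimum, members called between the subsets were 2 and 3 in uninjured and injured mice (4 and 5 without it), and after injury 1 and 0 in CD44high and CD44low Tregs (2 and 1 without it). At an adjusted p under 0.01 they were 1 after injury in CD44high Tregs and 0 for the difference of injury effects. In CD44low Tregs, 2 were called after injury with DESeq2 and with library totals alone. The cause was not tested where no construction shows it.

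Without the samples with a second number, 3 members were called after injury in CD44low Tregs, S1PR4 was 0.21 between the subsets in injured mice and 0.25 in the difference of injury effects, CCR7 was -0.0026 in that difference, and CXCR4 was -0.0023 after injury in CD44low Tregs. With those samples alone, 2 members (GPR183 and KLF2) were called in the difference of injury effects, where CXCR4 was -0.18. GPR183 was then -0.00052 between the subsets in uninjured mice, and after injury in CD44low Tregs S1PR4 was 0.13 and KLF2 0.21. Summing 1 with 1_2 and 5 with 5_2 gave 0.022 for that KLF2 change and -0.047 for the CXCR4 difference of injury effects.

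Label numbers were not taken as pairs, since not every pair correlated above 0.1. Deviations of same-numbered samples correlated at -0.12 to 0.167, above 0.1 in 4 of 18 pairs: 3 of 4 between the subsets of injured mice, 1 of 4 between those of uninjured mice and none between injured and uninjured mice. In 8 of 33 checks against another group a sample correlated best with its own number. A replicate block on the number gave -0.0034 for GPR183 between the subsets in uninjured mice, 0.027 for KLF2 after injury in CD44low Tregs and -0.11 for the CXCR4 difference of injury effects, and it added a call for CXCR4 between the subsets in both injury states (-0.60 and -0.71, adjusted p = 0.0425 and 0.0248, with 5 and 6 members called). A replicate block within injury states added it as well (-0.64 and -0.73, adjusted p = 0.0362 and 0.0285) and gave 0.0018 for S1PR4 and -0.00031 for GPR183 between the subsets in uninjured mice, and -0.043 for CCR7 and -0.093 for CXCR4 in the difference of injury effects, where 0 members were called and GPR183 was 1.12 (adjusted p = 0.0545).

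Leaving out 1 library in turn gave 1 to 2 members called after injury in CD44high Tregs, 1 to 2 in CD44low Tregs and 0 to 1 in the difference of injury effects. The ranges that crossed 0 were -0.11 to 0.0045 for S1PR4 and -0.13 to 0.14 for GPR183 between the subsets in uninjured mice, -0.13 to 0.00197 for S1PR1 and -0.0088 to 0.42 for CXCR4 after injury in CD44high Tregs, -0.055 to 0.0897 for KLF2 after injury in CD44low Tregs, and -0.038 to 0.079 for CCR7, -0.19 to 0.019 for S1PR4 and -0.24 to 0.19 for CXCR4 in the difference of injury effects.

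Counts over all genes moved as well. After injury in CD44high Tregs, 273 genes were called and 477 with DESeq2, 601 with only the groups compared, 581 without the second-numbered samples and 476 with the sums. In CD44low Tregs, 871 were called and 1460, 463, 1748 in the first 3 of these, 445 with the second-numbered samples alone and 440 with the block on the number. For the difference of injury effects, 74 were called and 215 with DESeq2, 35 with the block within injury states, and 314 without and 136 with only the second-numbered samples. Leaving out 1 library in turn put these 3 counts at 152 to 343, 510 to 1893 and 43 to 110. The planned comparison of the member proteins was not run. CXCR4, with 37 counts in its lowest library, and genes near 1 CPM are limited by depth. The union of exons as length put KLF3 at 8.91 to 23.1 CPM per kb.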
